A study of Homo sapiens with 30 samples.

Results

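The 10 genes described here are transcription factors, feedback proteins, growth brakes and a secreted hormone of the integrated stress response: ATF4, DDIT3 (CHOP), ATF3, NUPR1, TRIB3, PPP1R15A (GADD34), SESN2, DDIT4 (REDD1), CHAC1 and GDF15. They are 10 of the 60675 gene entries of the count table and were taken by symbol. They were selected on their levels in these libraries, with the results at 500 µg/mL already known, so every difference that involves the 500 µg/mL libraries is given as a description with its standard error and no p-value. Counts of genes past the threshold at 500 µg/mL are likewise descriptions, for the members and for the related gene lists. Only comparisons among the 100 µg/mL, 20 µg/mL and vehicle libraries are read as tests. All 10 genes passed the filter on low counts in every fit.

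In this response, kinases that sense unfolded protein in the endoplasmic reticulum, lack of amino acids, viral RNA or lack of haem phosphorylate the translation factor eIF2. General protein synthesis falls while ATF4 protein is made more efficiently, and ATF4 then activates genes for amino acid supply together with DDIT3, TRIB3, CHAC1 and SESN2. PPP1R15A directs a phosphatase back to eIF2 and so closes the loop. The measurements below are of mRNA, and the translation of ATF4 was not measured.

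RNA was sequenced from SW1783, an established human astrocytoma line grown in L-15 medium with serum, after 24 h with 70% ethanol extracts of herbal decoctions or with vehicle. Soshiho-tang and Yijin-tang were each given at 500, 100 and 20 µg/mL with 3 libraries a dose. Okbyeongpung-san was given at the same doses with 2 libraries a dose, 1 titled batch D and 1 titled batch E, and Soyo-san with 1 library a dose, titled batch D. The 3 vehicle libraries, like all those of Soshiho-tang and Yijin-tang, are titled batch E; their labels give 0.1% DMSO and the series' design text 2%, a difference not settled here. By the design text, an extract whose IC20 lay under 500 µg/mL was dosed at its IC20 and at dilutions of it. All doses in these labels are 500, 100 or 20 µg/mL.

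The labels do not say whether replicate libraries were grown and treated apart, and p-values therefore cover only library-to-library spread, possibly technical. Total counts ran from 23.9 M to 33.1 M a library. Vehicle libraries carry names of a set of their own, and 10.47% to 10.7% of their counts were mitochondrial, against 5.68% to 10.61% in the extract libraries. Library set and vehicle cannot be told apart. The Okbyeongpung-san and Soyo-san libraries carry names of another set than those of Soshiho-tang and Yijin-tang, so set and extract cannot be told apart either where Okbyeongpung-san is compared with these 2. Of 5 astrocyte markers only the glutamate transporter SLC1A3 was above 1 CPM anywhere, at 18.1 to 35.1 CPM, while GFAP did not exceed 0.205 CPM, S100B 0.252 CPM and AQP4 0.0701 CPM. VIM, the mesenchymal filament protein, lay between 3752 and 5587 CPM.

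Promoter sequence is given first, because 9 of the members, all but DDIT4, were highest in the same libraries. RefSeq windows on GRCh38.p14, from 250 bases before to 50 bases after each annotated start, were available for 9 of the 10 genes, all but NUPR1. Searched on both strands, the core of the C/EBP-ATF response element, TGATGNAA, occurred in windows of 2 members, ATF3 and CHAC1, and in 4.46% of 27305 genes. The cyclic AMP response element TGACGTCA occurred in 1 member, PPP1R15A, and in 2.25% of genes. The antioxidant response core TGACNNNGC occurred in 2 members, PPP1R15A and TRIB3, and in 16.1% of genes. A match describes letters and not binding. The matches to the elements that ATF4 and related zipper proteins are known to bind are shown 5′ to 3′ on the gene's strand, with the motif or its reverse complement in capitals.
ATF3, chr1:212565206-212565233, plus strand, motif 191 bases before the start: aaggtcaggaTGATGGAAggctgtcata
CHAC1, chr15:40953252-40953279, plus strand, motif 209 bases before the start, inside an annotated exon of another transcript: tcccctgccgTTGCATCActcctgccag
PPP1R15A, chr19:48872353-48872380, plus strand, motif 58 bases before the start: cctctcttcgTGACGTCAgcacgccggg

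The 120 bases before the start are printed for DDIT3 and SESN2, which had high levels with 500 µg/mL Soshiho-tang, and for DDIT4, which did not. These 3 hold 0 to 4 bases of annotated exon. Capitals mark the CCAAT box on either strand, and on the reverse strand it reads ATTGG. Such a box was found in 20.4% of 35116 such windows, in such windows of 24.3% of genes and in 6 of the 9 members with a window. The 6 were ATF3, CHAC1, DDIT3, GDF15, SESN2 and DDIT4. These 9 include DDIT4 and leave out NUPR1, so they are not the 9 that were highest in the same libraries. The 3 windows shown all hold at least 1.
DDIT3, chr12:57520518-57520637, minus strand: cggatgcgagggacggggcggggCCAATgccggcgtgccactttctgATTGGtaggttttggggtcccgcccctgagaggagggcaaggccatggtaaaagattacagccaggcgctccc
SESN2, chr1:28259398-28259517, plus strand: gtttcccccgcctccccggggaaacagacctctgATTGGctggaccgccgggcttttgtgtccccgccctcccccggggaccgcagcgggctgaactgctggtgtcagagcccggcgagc
DDIT4, chr10:72273804-72273923, plus strand: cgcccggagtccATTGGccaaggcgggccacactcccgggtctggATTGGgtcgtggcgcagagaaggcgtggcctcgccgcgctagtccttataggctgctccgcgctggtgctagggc

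Levels are CPM, a gene's count set against its library's total, with TMM scaling (edgeR's correction for RNA composition) over all 30 libraries, and differences are log2 ratios from edgeR with their standard errors. Per kilobase of annotated exon, vehicle cells held most ATF4, 58.6 CPM per kb, then DDIT4 with 33.9, PPP1R15A with 27.2 and DDIT3 with 18.6 CPM per kb. SESN2 and TRIB3 lay close together at 7.22 and 7.14 CPM per kb. CHAC1 had 3.09, NUPR1 1.63, GDF15 1.62 and ATF3 0.688 CPM per kb. The length used joins all annotated exons of a gene, 5674 bases for NUPR1 and 2058 for CHAC1, and the order depends on it. In CPM alone, vehicle means were 9.24 for NUPR1, 6.37 for CHAC1 and 3.39 for GDF15. With 500 µg/mL Soshiho-tang GDF15 reached 24.4 CPM per kb and ATF4 124 CPM per kb.

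**Figure D1:**
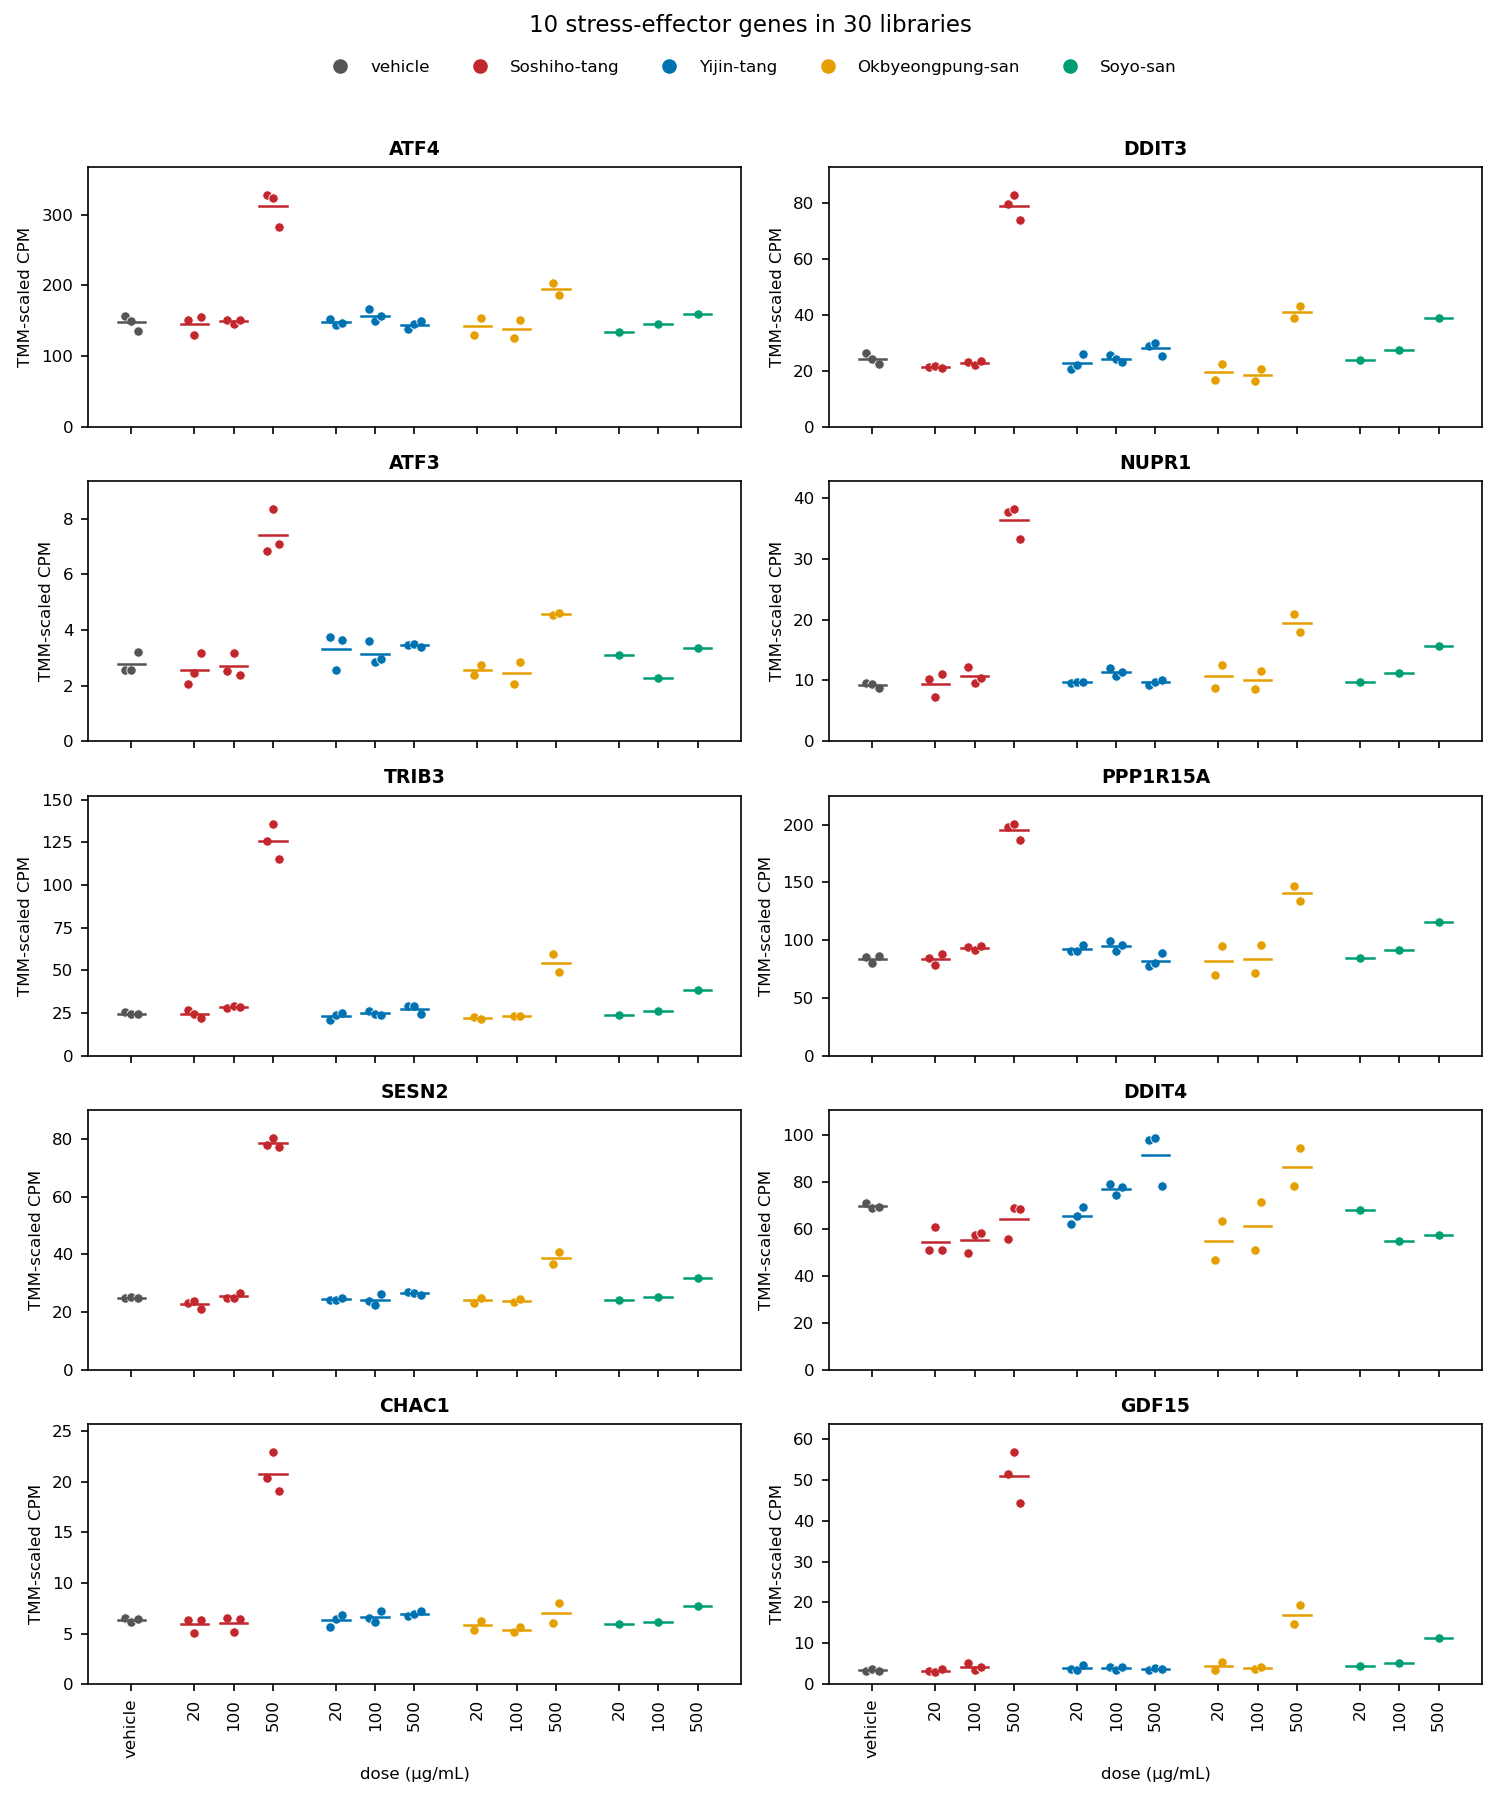
Level of each gene (vertical axis, TMM-scaled CPM from 0) in every library, by extract and dose in µg/mL; each point is 1 library and each horizontal line a group mean. In 9 panels the 3 Soshiho-tang libraries at 500 µg/mL stand above every vehicle, 20 and 100 µg/mL library, and the DDIT4 panel shows another order.

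Soshiho-tang at 500 µg/mL had the highest level of 9 of the 10 genes, and DDIT4 was the exception. Okbyeongpung-san at 500 µg/mL was intermediate for 8 genes, with CHAC1 and DDIT4 apart. All 3 Yijin-tang libraries at 500 µg/mL lay within the range of the 21 libraries of vehicle, 20 and 100 µg/mL for 7 genes, and DDIT3, SESN2 and DDIT4 exceeded it in at least 1 library. The lowest 500 µg/mL library exceeded all 21 of those libraries for 9 genes with Soshiho-tang, 8 with Okbyeongpung-san, 7 with the 1 Soyo-san library and 0 with Yijin-tang.

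Among the transcription factors, ATF4, the master regulator (chr22:39519695-39522685, plus strand, GRCh38), read 157, 150 and 136 CPM in vehicle. With Soshiho-tang it read 151, 130 and 155 CPM at 20 µg/mL, 151, 145 and 151 CPM at 100 µg/mL, and 328, 324 and 283 CPM at 500 µg/mL. The groups at 500 and 20 µg/mL did not overlap, and their means stood 2.14-fold apart (log2 1.10 ± 0.07). Okbyeongpung-san gave 130 and 154 CPM at 20 and 204 and 186 CPM at 500 µg/mL, a log2 difference of 0.45 ± 0.12. Yijin-tang gave 153, 144 and 147 CPM at 20 and 138, 145 and 149 CPM at 500 µg/mL, with overlapping groups and a log2 difference of -0.04 ± 0.07. ATF4 had the smallest log2 difference with Soshiho-tang of the 9 members other than DDIT4.

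DDIT3, which encodes the ATF4-induced factor CHOP linked to cell death under lasting stress, read 26.5, 24.2 and 22.3 CPM in vehicle. With Soshiho-tang it read 21.4, 21.6 and 21 CPM at 20 µg/mL and 79.4, 82.8 and 73.8 CPM at 500 µg/mL, 3.69-fold apart (log2 1.88 ± 0.08). Okbyeongpung-san gave 16.6 and 22.6 CPM at 20 and 38.9 and 43.0 CPM at 500 µg/mL (log2 1.05 ± 0.15). The highest and lowest Yijin-tang doses overlapped, at 20.8, 22.0 and 25.9 CPM and at 29, 29.8 and 25.2 CPM (log2 0.29 ± 0.08). DDIT3 lies at chr12:57516588-57521737 on the minus strand (GRCh38) and overlaps MARS1, the methionyl-tRNA synthetase gene, and MBD6 on the other strand. The kit keeps strand, but whether the counting used strand is not known here, and reads of the 3 genes may be mixed. MARS1 read 155, 164 and 145 CPM with 20 and 219, 225 and 218 CPM with 500 µg/mL Soshiho-tang, 1.43-fold apart. The group means at 20 and 500 µg/mL were 155 and 221 CPM for MARS1 and 35.1 and 39.4 CPM for MBD6. Those of DDIT3 were 21.3 and 78.7 CPM. The part of mixed reads in the DDIT3 level was not tested.

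ATF3, an immediate stress-induced repressor, was the lowest member per kilobase. It read 2.07, 2.45 and 3.16 CPM with 20 µg/mL and 6.86, 8.35 and 7.08 CPM with 500 µg/mL Soshiho-tang (log2 1.54 ± 0.15). Okbyeongpung-san gave 2.38 and 2.74, then 4.53 and 4.62 CPM (log2 0.83 ± 0.19). All 3 Yijin-tang libraries at 500 µg/mL lay between 3.40 and 3.49 CPM, inside the 20 µg/mL range of 2.57 to 3.75 CPM.

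NUPR1, a small stress-induced chromatin protein, read 10.2, 7.20 and 11 CPM with 20 µg/mL and 37.8, 38.2 and 33.3 CPM with 500 µg/mL Soshiho-tang (log2 1.95 ± 0.11). Okbyeongpung-san gave 8.79 and 12.6, then 21 and 18 CPM (log2 0.86 ± 0.18). Yijin-tang gave 9.56 to 9.83 CPM at 20 and 9.30 to 10.0 CPM at 500 µg/mL, which overlap.

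Both feedback genes were high with Soshiho-tang. TRIB3, a pseudokinase that restrains ATF4, DDIT3 and AKT, read 25.3, 24.2 and 24.1 CPM in vehicle, 26.8, 24.4 and 21.9 CPM with 20 µg/mL and 126, 136 and 115 CPM with 500 µg/mL Soshiho-tang. The ratio of 5.16 (log2 2.36 ± 0.08) was the second largest in the set. Okbyeongpung-san gave 22.7 and 21.4, then 59.4 and 49.2 CPM (log2 1.3 ± 0.1). Yijin-tang gave 20.8, 23.6 and 25.2, then 28.8, 28.9 and 24.4 CPM, with overlap (log2 0.24 ± 0.08).

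PPP1R15A read 84.2, 78.6 and 87.8 CPM with 20 µg/mL and 198, 201 and 187 CPM with 500 µg/mL Soshiho-tang (log2 1.23 ± 0.05). Okbyeongpung-san gave 69.7 and 94.6, then 147 and 134 CPM (log2 0.77 ± 0.15). With Yijin-tang the order was opposite: 90.8, 90.8 and 95.8 CPM at 20 µg/mL and 77.8, 80.0 and 89.0 CPM at 500 µg/mL, without overlap (log2 -0.17 ± 0.05), a difference that did not pass the threshold of the edgeR fit.

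Of the growth brakes, SESN2 and DDIT4 both restrain the growth kinase complex mTORC1, SESN2 as a leucine sensor and DDIT4 through the TSC complex. Their order over Soshiho-tang, Yijin-tang and Okbyeongpung-san differed. Among these extracts, the log2 difference of 500 against 20 µg/mL was largest with Soshiho-tang for SESN2 and smallest with Soshiho-tang for DDIT4. SESN2 read 23.2, 24.0 and 21.1 CPM with 20 µg/mL and 78.1, 80.4 and 77.1 CPM with 500 µg/mL Soshiho-tang (log2 1.78 ± 0.05). Okbyeongpung-san gave 23.2 and 25.0, then 36.6 and 40.7 CPM (log2 0.67 ± 0.08). Yijin-tang gave 24.1 to 25.0, then 26.1 to 27.1 CPM, which do not overlap but lie close (log2 0.12 ± 0.06).

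DDIT4 lies at chr10:72273920-72276036 on the plus strand (GRCh38), and the antisense gene DDIT4-AS1 that overlaps it had 0 counts in every library. It read 70.8, 69 and 69.3 CPM in vehicle. With Soshiho-tang it read 51.1, 61.0 and 51.0 CPM at 20, 49.8, 57.4 and 58.3 CPM at 100, and 55.7, 68.8 and 68.4 CPM at 500 µg/mL, so that no Soshiho-tang library reached the lowest vehicle library. Yijin-tang gave 62.0, 65.6 and 69.2 CPM at 20, 79.1, 74.4 and 77.8 CPM at 100, and 97.6, 98.7 and 78.3 CPM at 500 µg/mL. Okbyeongpung-san gave 46.7 and 63.2, then 51.2 and 71.3, then 78.4 and 94.2 CPM. The log2 differences of 500 against 20 µg/mL were 0.24 ± 0.09 with Soshiho-tang, 0.48 ± 0.09 with Yijin-tang and 0.64 ± 0.17 with Okbyeongpung-san. DDIT4 was the only member lower with Soshiho-tang than with Yijin-tang at 500 µg/mL, at log2 -0.51 ± 0.09.

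CHAC1, an enzyme that degrades glutathione, read 6.33, 5.05 and 6.36 CPM with 20 µg/mL and 20.4, 22.9 and 19.1 CPM with 500 µg/mL Soshiho-tang (log2 1.82 ± 0.10). Okbyeongpung-san gave 5.37 and 6.28, then 6.01 and 8.06 CPM, which overlap (log2 0.27 ± 0.15). Yijin-tang at 500 µg/mL read 6.73, 6.90 and 7.26 CPM. CHAC1 with Okbyeongpung-san stood at the level of Yijin-tang, with a log2 difference between them of -0.02 ± 0.13.

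GDF15, a secreted hormone of the TGF-beta family that signals through GFRAL and RET in the hindbrain, had the largest ratio. Its gene lies at chr19:18374731-18389176 on the plus strand (GRCh38). It read 3.15, 3.69 and 3.33 CPM in vehicle. With Soshiho-tang it read 3.33, 2.93 and 3.65 CPM at 20, 5.30, 3.48 and 4.11 CPM at 100, and 51.4, 56.7 and 44.4 CPM at 500 µg/mL, a ratio of 15.4 between the highest and lowest dose (log2 3.95 ± 0.12). Okbyeongpung-san gave 3.57 and 5.34, then 14.7 and 19.3 CPM (log2 1.92 ± 0.19). Yijin-tang gave 3.83, 3.47 and 4.60, then 3.48, 4.07 and 3.68 CPM, which overlap (log2 -0.08 ± 0.15). The receptor genes were at most 0.036 CPM for GFRAL and 0.259 CPM for RET in all 30 libraries.

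**Figure D2:**
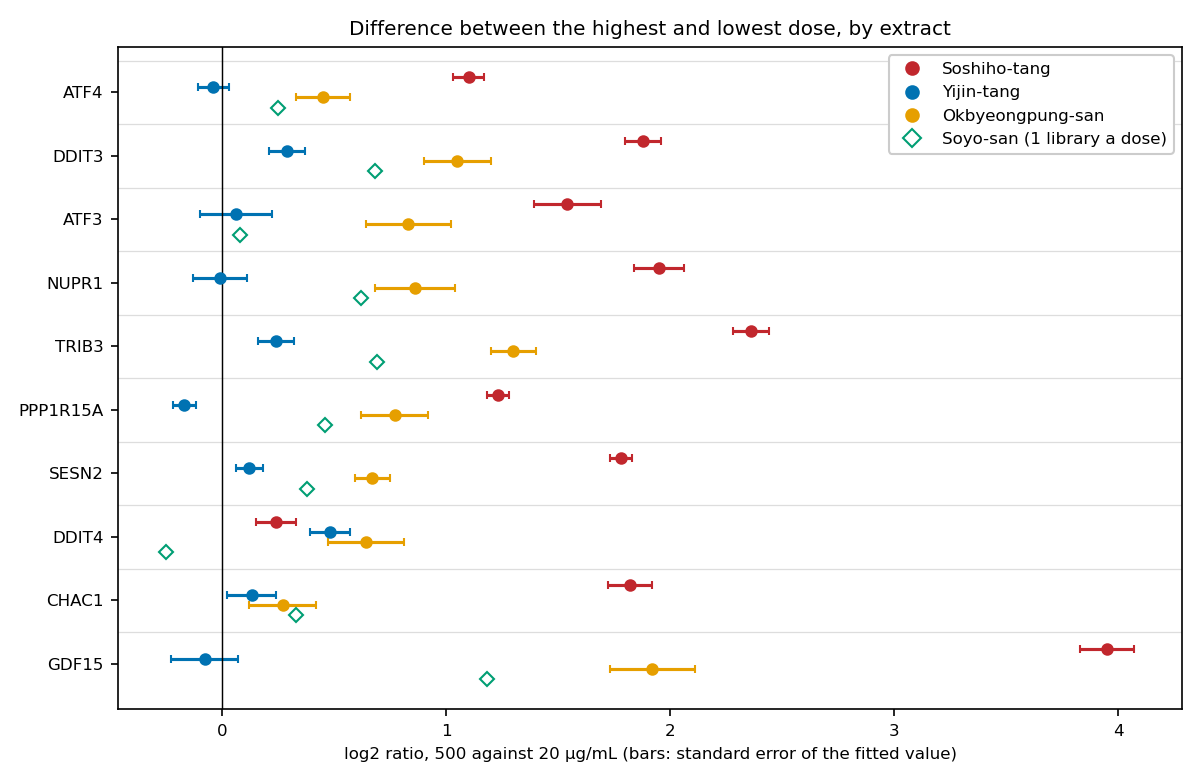
Log2 ratio of 500 to 20 µg/mL (horizontal axis) for each gene and extract; bars are standard errors of the edgeR fit, and the open diamonds for Soyo-san are ratios of single libraries after adding 1 CPM. Soshiho-tang lies farthest to the right for 9 genes, from 1.10 for ATF4 to 3.95 for GDF15, and DDIT4 lies near 0.24.

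By edgeR (quasi-likelihood F test, Benjamini-Hochberg adjusted p under 0.05), 9 of 10 members were called higher with 500 than with 20 µg/mL Soshiho-tang and 0 lower, where 14.6% of all 16872 genes were called higher and 14.2% lower. With Yijin-tang 2 members, DDIT3 and DDIT4, were called higher and 0 lower, against 2.7% and 2.94% of genes. With Okbyeongpung-san 9 members were called higher, all but CHAC1, and 0 lower, against 5.21% and 5.1% of genes. The members were chosen on these same values, so the counts describe the choice and nothing is read from their distance to the shares of all genes. Without either the 500 or the 20 µg/mL library of replicate 2, the Okbyeongpung-san count was 4 (TRIB3, GDF15, SESN2 and DDIT3); the remaining single library was then assumed to vary like the other groups. In Yijin-tang, 1 fit of 27 libraries kept 1 of the 2 calls, DDIT4, and leaving out 1 library gave 1 to 4.

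Within each titled batch of Okbyeongpung-san the order of 500 and 20 µg/mL was the same for all 10 genes. The log2 ratios in batches D and E were 1.68 and 1.78 for GDF15, 1.17 and 1.35 for TRIB3, 0.90 and 1.18 for DDIT3, and 0.68 and 0.63 for SESN2. They were further apart for ATF4, 0.27 and 0.65, for NUPR1, 0.49 and 1.17, and for PPP1R15A, 0.50 and 1.07. As a share of the Soshiho-tang log2 difference, that of Okbyeongpung-san was 14.6% for CHAC1 and between 37.8% (SESN2) and 62.8% (PPP1R15A) for the other 8 genes called with Soshiho-tang.

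With Soyo-san, 1 library a dose allows no test. At 500, 100 and 20 µg/mL it read 11.4, 5.29 and 4.48 CPM for GDF15, 38.9, 27.5 and 24.0 CPM for DDIT3, 38.4, 26.1 and 23.5 CPM for TRIB3 and 160, 145 and 134 CPM for ATF4. These 4 genes were each highest at 500 µg/mL. DDIT4 was instead highest at 20 µg/mL, with 57.4, 54.8 and 68.2 CPM.

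Between extracts at 500 µg/mL the same limit holds, and counts are descriptions. Soshiho-tang exceeded Yijin-tang for 9 members and was below it for DDIT4, and all 10 were called, where 25.2% of genes were. The log2 differences ran from 1.10 for ATF3 to 3.77 ± 0.12 for GDF15. Against Okbyeongpung-san the same 9 were higher with Soshiho-tang, by 0.47 ± 0.10 for PPP1R15A to 1.58 ± 0.14 for GDF15, DDIT4 was lower by -0.43 ± 0.13, and all 10 were called against 18.3% of genes. No library of the 2 extracts overlapped for any of the 10, including the 1 Okbyeongpung-san library of batch E. That library also carries a name of the other set, so set and extract cannot be told apart here. Yijin-tang was called lower than Okbyeongpung-san for 7 members, with ATF3, CHAC1 and DDIT4 not called, where 21.7% of genes were called in either direction. Its largest difference was -2.19 ± 0.16 for GDF15.

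Other measures also differed between the 500 and 20 µg/mL libraries, with all 3 extracts. SLC1A3 read 18.1 to 20.4 CPM with 500 and 25.1 to 29.8 CPM with 20 µg/mL Soshiho-tang, and the leukocyte marker PTPRC 4.17 to 4.76 CPM against 12.3 to 12.9 CPM. The sum of 4 mesenchymal markers was 9710 to 10400 CPM against 13400 to 14400 CPM, and that of 3 neuronal markers 40.2 to 42.1 CPM against 50.7 to 56.3 CPM. The sum of 4 leukocyte markers, 199 to 229 CPM against 135 to 192 CPM, was carried by CD68, and AIF1 stayed at or below 0.0361 CPM. With Yijin-tang, where most members differed little, SLC1A3 read 23.0 to 25.5 CPM with 500 against 29.4 to 29.9 CPM with 20 µg/mL, PTPRC 8.12 to 8.52 against 11.6 to 11.7 CPM and the mesenchymal sum 11700 to 13100 against 13400 to 14000 CPM. With Okbyeongpung-san SLC1A3 read 27.8 to 31.3 against 34.0 to 34.8 CPM, PTPRC 5.83 to 6.43 against 9.69 to 12.4 CPM and the mesenchymal sum 11700 to 11800 against 14100 to 14200 CPM. The neuronal sum was 48.5 to 52.9 against 53.8 to 56.4 CPM with Yijin-tang and 51.1 to 52.6 against 58.7 to 60.7 CPM with Okbyeongpung-san. SLC1A3, PTPRC, the mesenchymal sum and the neuronal sum were thus lower at 500 µg/mL without overlap with each extract. The leukocyte sum was instead higher with Soshiho-tang. It overlapped with Yijin-tang, 174 to 254 against 165 to 196 CPM, and with Okbyeongpung-san, 153 to 243 against 166 to 189 CPM. Within the mesenchymal list, FN1 overlapped with Yijin-tang and VIM with Okbyeongpung-san. Mitochondrial shares overlapped with Soshiho-tang, 6.93% to 7.79% against 6.37% to 9.03%, and with Yijin-tang, 6.7% to 10.61% against 7.15% to 9.59%, but not with Okbyeongpung-san, 5.68% to 6.8% against 8.11% to 8.36%. The part of these measures in the members' levels was not tested. In bulk RNA, a change in the share of cells and a change in RNA per cell cannot be told apart.

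Below 500 µg/mL the highest library of a member was at most 1.82 times the lowest library of that member. Over the 21 libraries at 100 µg/mL, 20 µg/mL or vehicle, the lowest and highest library of GDF15 were 2.93 and 5.34 CPM, those of ATF4 125 and 166 CPM, and those of SESN2 21.1 and 26.8 CPM. In the edgeR test of 100 against 20 µg/mL, 0 of 10 members were called with Soshiho-tang, 0 with Yijin-tang and 0 with Okbyeongpung-san, where 0.0711%, 0.00593% and 0.0% of genes were. At an unadjusted p under 0.05 the members numbered 4, 1 and 0 of 10. Over all genes 618 of 16872, 618 of 16872 and 154 of 16643 were under that p. DESeq2 called 0, 0 and 0 members. The log2 differences of GDF15 were 0.40 ± 0.15, 0.03 ± 0.15 and -0.19 ± 0.21. With Soshiho-tang all 10 members had a log2 difference above 0, from 0.02 to 0.40. Their median was 0.13, beside -0.0 over all genes. Those of CHAC1, ATF3, ATF4 and DDIT4 changed sign on leaving out a library. With Yijin-tang 8 members were above 0 (median 0.07) and with Okbyeongpung-san 3 (median -0.05). Whether the 100 to 20 µg/mL difference itself differed between Soshiho-tang and Yijin-tang was tested as an interaction. It called 0 members and 0.0% of genes. At an unadjusted p under 0.05 there was 1 member, beside 418 of 16872 genes, and DESeq2 called 0 members.

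DDIT4 was a member called at low dose with Soshiho-tang. It fell by 0.36 ± 0.09 on the log2 scale with 20 µg/mL Soshiho-tang against vehicle (edgeR adjusted p = 0.00761) and by 0.34 ± 0.09 with 100 µg/mL (adjusted p = 0.0114), lower in 3 of 3 libraries each time. At 100 µg/mL it was lower with Soshiho-tang than with Yijin-tang by -0.48 ± 0.09 (adjusted p = 0.0083), again without overlap. At 20 µg/mL that difference was -0.27 ± 0.09 with an adjusted p of 0.405. Without Soshiho-tang 100 replicate 1, neither difference at 100 µg/mL was called, at -0.27 against vehicle and -0.41 against Yijin-tang. In the 1 fit of all 27 libraries of Soshiho-tang, Yijin-tang, Okbyeongpung-san and vehicle, they were -0.34 and -0.48 and not called. With 20 µg/mL Okbyeongpung-san the DDIT4 mean was 55.0 CPM, beside 54.4 CPM with 20 µg/mL Soshiho-tang and 69.7 CPM in vehicle. That Okbyeongpung-san difference from vehicle was called only with no filter, at -0.33 (edgeR adjusted p = 0.0183). Against vehicle, set and treatment cannot be told apart.

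PPP1R15A was the other member called against vehicle. It rose by 0.18 ± 0.05 with 100 µg/mL Yijin-tang (adjusted p = 0.0192) and by 0.15 ± 0.05 with 100 µg/mL Soshiho-tang (adjusted p = 0.0479) against vehicle, higher in 3 of 3 libraries each time. The Soshiho-tang call was lost on leaving out any 1 of the 6 libraries, with no filter on low counts, without mitochondrial genes and in the 1 fit of 27 libraries. The Yijin-tang call was lost in the 1 fit of 27 libraries and the Yijin-tang call without Vehicle replicate 2, Yijin-tang 100 replicate 1 or replicate 3; on leaving out a library the values of the lost calls were 0.13 to 0.18 and 0.15 to 0.17. TRIB3 was called for Soshiho-tang 100 µg/mL against vehicle only in 2 alternatives, at 0.22 with no filter (edgeR adjusted p = 0.0214) and at 0.22 with only the groups compared (adjusted p = 0.0127).

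Against vehicle, the members called were thus 2 at 100 and 1 at 20 µg/mL for Soshiho-tang, where 21% and 21.8% of genes were called, and 1 and 0 for Yijin-tang, where 25.6% and 19.8% were. With Okbyeongpung-san 0 and 0 were called, against 3.66% and 2.24% of genes. Under an unadjusted p of 0.05 were 1 and 0 of 10 members, beside 3877 and 3607 of 16643 genes. DESeq2 called 0 and 0 members. For Yijin-tang at 20 µg/mL, 1 member was under an unadjusted p of 0.05, beside 5501 of 16872 genes, and DESeq2 called 1 member, PPP1R15A. The members' shares lay at or below those of all genes in these comparisons. Because vehicle libraries form a set of their own, set and treatment cannot be told apart here.

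Between extracts at 100 µg/mL, the 1 call among members was DDIT4 for Soshiho-tang and Yijin-tang, where 0.753% of genes were called. Soshiho-tang and Yijin-tang against Okbyeongpung-san gave 0 and 0, where 0.552% and 0.207% were. Under an unadjusted p of 0.05 were 2 and 4 of 10 members, beside 1959 and 3350 of 17396 genes. DESeq2 called 0 and 1 members, the 1 being DDIT3. At 20 µg/mL the 3 pairs gave 0 members, where 0.13%, 0.144% and 0.0% of genes were called. An unadjusted p under 0.05 was found for 3, 1 and 0 of 10 members. Over all genes it was found for 1437 of 16872, 1385 of 17396 and 1512 of 17396. DESeq2 called 0 members in each.

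Genes around the members were taken from lists whose choice was also made with earlier results of these data known, and the named genes, apart from the paralogs, were picked by their difference with 500 against 20 µg/mL Soshiho-tang, so their values carry no p. Rose and fell here mean past the edgeR threshold, and the sizes are log2 differences. Over all genes the shares called higher and lower were those given above: 14.6% and 14.2% with Soshiho-tang, 2.7% and 2.94% with Yijin-tang, and 5.21% and 5.1% with Okbyeongpung-san. Of 23 tested further targets of ATF4 and DDIT3, 17 rose and 2 fell with 500 against 20 µg/mL Soshiho-tang, with a median log2 difference of 0.78 beside 0.01 over all genes. With Okbyeongpung-san 11 rose and 1 fell (median 0.27), and with Yijin-tang 4 rose and 2 fell (median 0.07), beside 0.0 over all genes for both. ADM2, a secreted peptide, rose by 2.12 ± 0.12 with Soshiho-tang and by 0.89 ± 0.15 with Okbyeongpung-san. The asparagine synthetase ASNS rose with all 3 extracts, by 1.45 ± 0.05, 1.05 ± 0.09 and 0.26 ± 0.06 with Soshiho-tang, Okbyeongpung-san and Yijin-tang. CBS, which makes cystathionine, rose by 1.26 ± 0.08 and 0.81 ± 0.10 with Soshiho-tang and Okbyeongpung-san.

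Few genes upstream of ATF4 were called. Of 12 eIF2 kinases and eIF2 or eIF2B subunits, 2 rose and 1 fell with Soshiho-tang (median 0.07), and 0 were called with Yijin-tang or Okbyeongpung-san; with Soshiho-tang 2 and 1 of 12 lie near the shares of all genes. The eIF2 beta subunit gene EIF2S2 rose by 0.28 ± 0.07, the RNA-sensing kinase gene EIF2AK2 by 0.16 ± 0.06, and EIF2B1 fell by 0.15 ± 0.05. Among 14 leucine zipper partners 5 rose and 2 fell with Soshiho-tang, 3 and 2 with Okbyeongpung-san and 1 and 1 with Yijin-tang. CEBPG, the partner of ATF4, rose by 1.02 ± 0.06, 0.49 ± 0.09 and 0.23 ± 0.06 in that order of extracts. CEBPB rose by 0.92 ± 0.13 and JUN by 0.69 ± 0.05 with Soshiho-tang.

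Other branches of stress signalling gave mixed counts. Of 18 genes of the ATF6 and XBP1 branch of the unfolded protein response, 3 rose and 3 fell with Soshiho-tang (median -0.02), 6 rose and 0 fell with Okbyeongpung-san (median 0.15), and 0 were called with Yijin-tang. The Soshiho-tang counts lie near the shares of all genes. HERPUD1, of endoplasmic reticulum degradation, rose by 1.08 ± 0.05 and 0.75 ± 0.07 with Soshiho-tang and Okbyeongpung-san. The chaperone gene DNAJB9 was higher with Okbyeongpung-san than with Soshiho-tang at 500 µg/mL, by a log2 difference of Soshiho-tang to Okbyeongpung-san of -0.32 ± 0.07, opposite to the order of the 9 members. The p53 target CDKN1A, a cell cycle inhibitor, did the same (-0.73 ± 0.10). Of 18 p53 targets 5 rose and 3 fell with Soshiho-tang, 4 and 0 with Okbyeongpung-san and 1 and 0 with Yijin-tang. Of 10 genes of mitochondrial stress relay and protein quality control, 3 rose with Soshiho-tang and 2 with Okbyeongpung-san, among them the protease gene LONP1 (0.63 ± 0.06 and 0.56 ± 0.09).

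**Figure D3:**
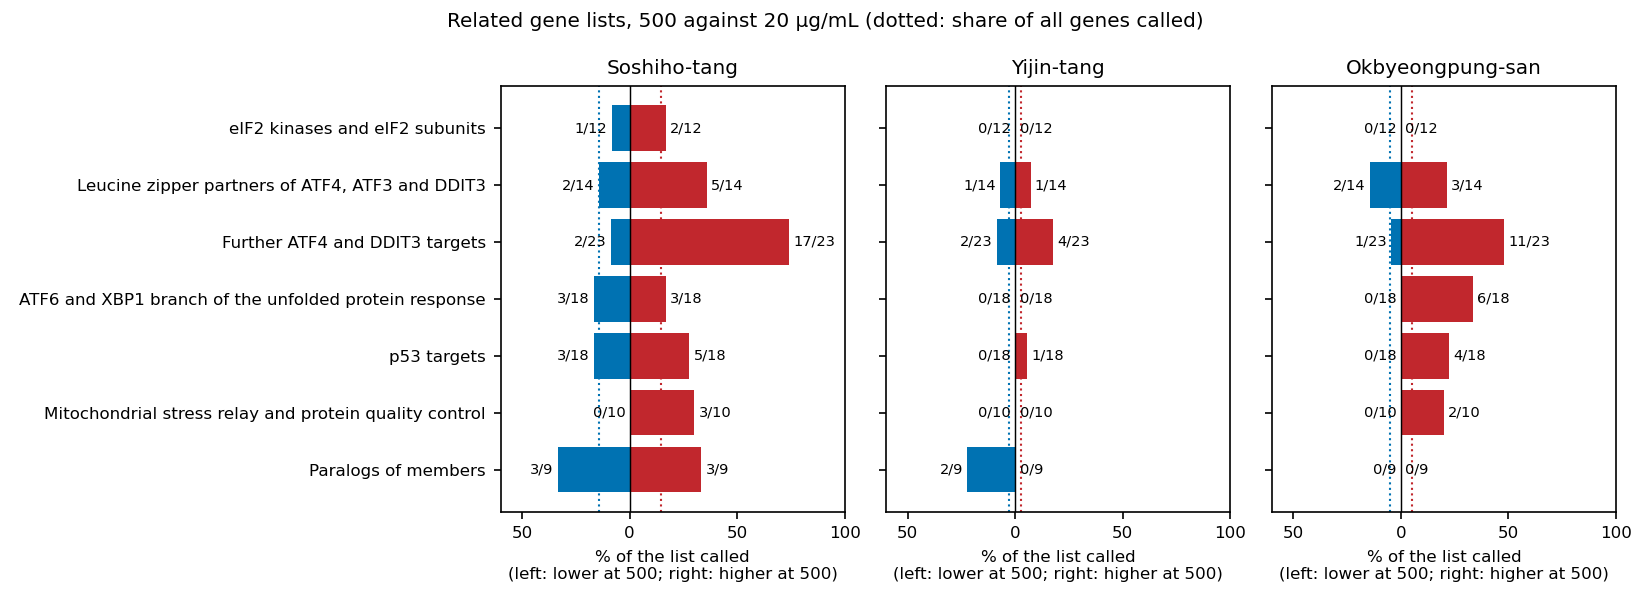
Share of each related gene list called higher (right, red) or lower (left, blue) at 500 than at 20 µg/mL, in percent of the genes tested, with the counts beside the bars; dotted lines are the shares of all genes. The further ATF4 and DDIT3 targets have the longest bars to the right, 17 of 23 with Soshiho-tang and 11 of 23 with Okbyeongpung-san.

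Paralogs of the members went both ways. Of 9 tested, 3 rose and 3 fell with Soshiho-tang, where 14.6% and 14.2% of all genes did, 0 and 2 with Yijin-tang, where 2.7% and 2.94% did, and 0 and 0 with Okbyeongpung-san, where 5.21% and 5.1% did. DDIT4L fell by 1.36 ± 0.11 with Soshiho-tang, from 8.94 to 3.48 CPM. SESN3 fell by 0.53 ± 0.13 and SESN1 by 0.25 ± 0.09, while SESN2 was high. PPP1R15B, the constitutive paralog of PPP1R15A, rose by 0.27 ± 0.06, TRIB1 by 0.50 ± 0.07 and JDP2, related to ATF3, by 0.63 ± 0.09. The values for ATF5 (0.02 ± 0.05), CHAC2 (-0.05 ± 0.12) and TRIB2 (-0.08 ± 0.06) did not pass the test. NUPR2 was too low to be tested.

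The genes most like 3 members were ranked by Pearson's r of log2(CPM + 1) over the 13 group means. The 11587 genes ranked had a mean of at least 5 CPM in any group. A gene can thus enter through a 500 µg/mL group, as TM4SF19 did, with 1.47 CPM in vehicle and 10.2 CPM with 500 µg/mL Soshiho-tang. The members were chosen with those groups known, so the r are descriptions. These r describe these libraries only, and all genes share them. For GDF15 they included NUPR1 and TM4SF19 (both 0.992), ARMCX1 (0.99) and GALNT12 (0.982). For ATF4 they were CARS1 (0.978), SESN2 (0.977), TRIB3 (0.973), GOT1 and ACP7 (both 0.972), and for DDIT3 they were C1orf43 (0.971), STEAP1, RCL1 and STPG1 (each 0.969) and ICAM1 (0.968). DDIT4 had r of 0.096 with GDF15, 0.219 with DDIT3 and 0.147 with ATF4.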

How the data were processed

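Per the submitters' processing notes, the tools named are FastQC 0.11.9, Trim Galore 0.6.5, STAR 2.7.3a and RSEM 1.3.3, with hg38/GRCh38; the annotation release and strand setting are not given in the sources used here. The authors deposited RSEM expected counts per Ensembl gene, not normalized, which were rounded to whole counts. Symbols matched 56558 of 60675 entries. Genes were filtered with edgeR's filterByExpr (minimum count 10, total 15), scaled by TMM and tested with edgeR 4.0.16's quasi-likelihood F test in R 4.3.3, with Benjamini-Hochberg adjustment over all genes at 0.05. Soshiho-tang and Yijin-tang were fitted with vehicle (21 libraries), Okbyeongpung-san with vehicle (9), and Okbyeongpung-san against other extracts in 27 libraries. The scripts were tested on simulated data. Replicates differed beyond sampling noise (chi-square per degree of freedom 3.21 to 39.47 over 24 pairs).

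The members and gene lists were chosen with earlier results of these data known. Named list genes are up to 3 per list called with Soshiho-tang at 500 against 20 µg/mL with the largest differences and no overlap, and all paralogs; likeness names 5 per gene, of which 1 is not reported here. Alternatives were RLE size factors, DESeq2 1.42.0, no filter, other sets of libraries, no mitochondrial genes, a replicate block, leaving out each library, within-batch values and, for Soyo-san, other pseudocounts. Replicate numbers within Okbyeongpung-san equal the titled batch, which pairs its doses by label; the deviations of same-numbered libraries correlated at 0.08 for 500 and 20 µg/mL and 0.26 for 100 and 20 µg/mL. Coordinates and exons are from GENCODE v29 (GRCh38), promoters from RefSeq. The wortmannin and water extracts named in the design text were not analysed here.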

Additional observations from a re-analysis of the deposited data

Results flagged for a closer look

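The order of PPP1R15A differed between extracts: every 500 µg/mL library lay above every 20 µg/mL library with Soshiho-tang and with Okbyeongpung-san, and every one below with Yijin-tang. The Yijin-tang difference, -0.17 ± 0.05 on the log2 scale, did not pass the threshold of the edgeR fit, but DESeq2 called it. The log2 difference of 500 against 20 µg/mL was larger by 1.4 with Soshiho-tang than with Yijin-tang, and the Yijin-tang value minus that of Okbyeongpung-san was -0.94. These differences between extracts were not tested, because PPP1R15A was chosen with the 500 µg/mL results known.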

How the results depend on the processing

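Of 3630 recomputed values of single members, 3593 stayed the same. Tested values were judged by the side of the threshold, and values with no test by the replicate spread. Soyo-san values, which have no replicates, were judged by a fixed margin on the log2 scale. Of the rest, 17 passed the threshold only in the alternative, 17 only as reported, and 3 moved within batches (ATF3 and ATF4 with Okbyeongpung-san). The sign changed in 119 values, 115 of them on leaving out a library, all between -0.22 and 0.22 on the log2 scale; no called difference changed sign. Counts of called members changed as follows. In 1 fit of 27 libraries they went from 2 to 0 for Soshiho-tang 100 µg/mL against vehicle, 2 to 1 for Yijin-tang 500 against 20, 1 to 0 for Yijin-tang 100 against vehicle, 1 to 0 for Soshiho-tang against Yijin-tang at 100, and 0 to 1 for Okbyeongpung-san 100 against vehicle. With only the groups compared, they were 1 for Yijin-tang 500 against 20, 6 for Okbyeongpung-san 500 against 20, 2 for Yijin-tang 100 against vehicle and 3 for Soshiho-tang 100 against vehicle (TRIB3 added). Without a filter they were 10 for Soshiho-tang 500 against 20 (DDIT4 added), 3 for Yijin-tang 500 against 20 (TRIB3 added), 2 for Yijin-tang 100 against vehicle, 1 for Okbyeongpung-san 100 and 1 for 20 against vehicle, 1 for Soshiho-tang against Yijin-tang at 20, and 1 and 2 for Soshiho-tang and Yijin-tang against Okbyeongpung-san at 100. Without mitochondrial genes Soshiho-tang 100 against vehicle gave 1. DESeq2 gave 3 for Yijin-tang 500 against 20 (PPP1R15A added), 8 for Okbyeongpung-san 500 against 20 (ATF3 lost), 1 for Yijin-tang 20 against vehicle and 1 for Yijin-tang against Okbyeongpung-san at 100. Leaving out 1 library gave 4 to 8 for Okbyeongpung-san 500 against 20 (reported 9), 0 to 2 for Soshiho-tang 100 against vehicle, 1 to 4 for Yijin-tang 500 against 20, 0 to 1 for Yijin-tang 100 against vehicle, 0 to 1 for Soshiho-tang against Yijin-tang at 100, and 0 to 3 for Yijin-tang against Okbyeongpung-san at 100. Without Okbyeongpung-san 100 replicate 3, the last pair gave 3 (PPP1R15A, DDIT4 and DDIT3), and without Soshiho-tang 100 replicate 2 GDF15 was called against vehicle at 0.48. Counts over all genes moved as well. With only the groups compared, 308 of 15955 genes were called for Yijin-tang 500 against 20, beside 951 of 16872 as reported. For Okbyeongpung-san 500 against 20 they were 523 of 16107, beside 1716 of 16643 as reported. In 1 fit of 27 libraries, Okbyeongpung-san 100 against vehicle gave 2494 of 17396, beside 609 of 16643 as reported. The cause of these changes was not tested.

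With a replicate block, members called stayed within 1.5 times of each reported count (9 for Okbyeongpung-san 500 against 20; 10 for Soshiho-tang 500 against 20, as with DESeq2, where DDIT4 was added), while counts over all genes went from 609 to 52 and from 372 to 40 for Okbyeongpung-san 100 and 20 against vehicle. For Soshiho-tang and Yijin-tang the numbers did not pair the libraries. Counts over all genes that moved by over 1.5 times, as reported and then lowest to highest over all other settings except leaving out a library, were for 100 against 20: 12 (3 to 101) Soshiho-tang, 1 (0 to 67) Yijin-tang, 0 (0 to 44) Okbyeongpung-san and 0 (0 to 65) for the interaction. For 500 against 20 they were 951 (308 to 1052) Yijin-tang and 1716 (523 to 3082) Okbyeongpung-san. Against vehicle they were 609 (52 to 2494) and 372 (40 to 2162) for Okbyeongpung-san at 100 and 20. Between Soshiho-tang and Yijin-tang they were 127 (46 to 396) at 100 and 22 (6 to 252) at 20. Between Soshiho-tang and Okbyeongpung-san they were 3181 (2065 to 3285), 96 (29 to 518) and 25 (2 to 251) at 500, 100 and 20, and between Yijin-tang and Okbyeongpung-san 3778 (1571 to 3931), 36 (0 to 1191) and 0 (0 to 324). Leaving out 1 library gave 12 to 29 and 9 to 26 for Okbyeongpung-san 100 and 20 against vehicle, 2323 to 2796 for Soshiho-tang 100 and 2081 to 2822 for Yijin-tang 20 against vehicle (reported 3550 and 3338), and 0 to 1080 for Yijin-tang against Okbyeongpung-san at 100.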
